A study of Mus musculus and synthetic construct with 30 samples.

Results

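Of the 72 Morc2a tiles read from the oligo annotation, 1 raised reporter RNA well above the vector DNA on every barcode that could be measured. This 90 bp tile, chr11:3681015-3681104 in mm10, had a log2 ratio of RNA over DNA of 1.76, as the median of 4 barcodes. The remaining 67 measured tiles lay between -0.46 and 0.51. Over the 64 of them with at least 2 measured barcodes, the estimated share of the barcode variance that lay between tiles was 0%. That is the floor of the estimate, and it does not show that no other tile differed. The tile is 60.0% GC and 87.8% of its bases are repeat-masked.

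The tiles are the rows of the oligo annotation whose name starts with Morc2a and is not a scrambled copy. They comprise 72 tiles with 359 barcodes, out of 23420 barcodes counted in the pool. The part of the annotation read here covers 1196 of its 22118 oligos, so the 72 tiles are a subset of the tiling of this locus, and they cover 6316 bp of the stretch from 3649033 to 3688842 on chromosome 11. Every tile equals the mm10 sequence of the plus strand, which is the strand of the gene. Each tile was designed with 5 barcodes, except 1 tile with 4. A barcode was measured when its count reached 10 in 3 or more of the DNA libraries, which held for 257 Morc2a barcodes (71.6%) in 68 tiles. 20 tiles kept all 5 barcodes, 59 kept at least 3, 6 kept 2 and 3 kept 1.

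The assay was run in C2C12, a line of mouse myoblasts, the precursor cells of skeletal muscle. Cells were transfected transiently with the whole pool of plasmids, and 5 RNA libraries were made from cells of 2 passages. The 5 DNA libraries were made from vector DNA on 2 days and serve as the background for every RNA value. The labels add a letter, A or B, to each library, and what it stands for was not given in the sources used here. Libraries held 18725458 to 35098552 counts (RNA) and 9846269 to 24602523 counts (DNA). Morc2a barcodes took 1.39% to 1.43% of all counts in the RNA libraries and 2.02% to 2.06% in the DNA libraries. The 100 most abundant barcodes of each library took 29.6% to 31.9% of the RNA counts and 5.01% to 5.10% of the DNA counts, so libraries were scaled by the median barcode and not by their total. Values below are counts divided by that factor (scaled counts), or log2 ratios of RNA to DNA.

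In a massively parallel reporter assay a short genomic sequence is placed upstream of a minimal promoter, and a barcode in the transcribed part of the plasmid reports how much RNA that plasmid makes. Dividing by the barcode's share of the plasmid DNA corrects for how often each plasmid is present. Morc2a encodes a nuclear ATPase of the MORC family, known for its work with the HUSH complex in silencing transposable elements and other repeated DNA. Its 5 prime end lies head to head with the gene of the long non-coding RNA Tug1.

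The sequences on which the results turn are given 5 prime to 3 prime. The most active tile and its closest relative in the annotation come first, because they share 12-mers in opposite directions. The tile at 3651172 is therefore printed as its reverse complement, and capitals in both mark the bases inside shared 12-mers.

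chr11:3681015-3681104, as designed: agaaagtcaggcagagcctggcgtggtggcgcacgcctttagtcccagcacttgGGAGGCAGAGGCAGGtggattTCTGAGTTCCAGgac

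chr11:3651172-3651261, reverse complement: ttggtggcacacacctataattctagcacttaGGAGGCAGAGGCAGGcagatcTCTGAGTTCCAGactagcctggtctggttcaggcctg

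The second highest tile follows, with capitals for the 19 bases it shares with annotated snRNA genes.

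chr11:3653666-3653755: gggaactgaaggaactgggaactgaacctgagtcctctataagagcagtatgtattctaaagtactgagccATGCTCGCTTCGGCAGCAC

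The lowest tile by median has no soft-masked base. The tile at 3653176 is masked throughout and is among the 5 lowest. The tile at 3654107 carries a lone active barcode, and the tile at 3680108 is a promoter tile of the internal start sites. In these 4, capitals mark soft-masked bases.

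chr11:3671174-3671263: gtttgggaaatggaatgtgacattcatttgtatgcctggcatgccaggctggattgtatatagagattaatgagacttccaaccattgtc

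chr11:3653176-3653265: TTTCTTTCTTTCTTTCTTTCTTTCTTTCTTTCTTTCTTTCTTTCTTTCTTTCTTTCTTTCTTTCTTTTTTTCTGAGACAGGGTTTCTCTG

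chr11:3654107-3654196: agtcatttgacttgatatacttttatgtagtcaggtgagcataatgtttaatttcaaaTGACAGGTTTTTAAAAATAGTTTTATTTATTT

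chr11:3680108-3680197: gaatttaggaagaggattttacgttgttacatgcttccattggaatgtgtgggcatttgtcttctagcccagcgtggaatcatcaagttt

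By GENCODE vM21, 55 of the 72 tiles lie wholly in introns of Morc2a, 12 touch a coding exon, 3 touch an untranslated region, 1 lies upstream of the gene and 1 touches an exon of a processed transcript only. The annotation gives 3 coding transcripts that start at 3649191, 3649494 and 3649759, and 3 processed transcripts inside the gene that start at 3679907, 3680267 and 3680362. GC content ran from 23.3% to 72.2% with a median of 40.0%. At least 50% of the bases were repeat-masked in 9 tiles, and 40 tiles held no masked base. The middle 24 bases occurred once in the genome for 69 tiles.

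Over the 257 measured barcodes the median log2 ratio was 0.0048, beside 0.0062 for all 16285 measured barcodes of the pool. The interquartile range was 0.54 for Morc2a and 0.61 for the pool. The 358 barcodes of the other annotated gene loci had a median of 0.07, the 124 barcodes of scrambled tiles 0.17, and the 43 barcodes of the CMV promoter, a strong viral promoter included as a control, 1.15. These medians were set side by side without a test.

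Each barcode's RNA was tested against its DNA by edgeR's quasi-likelihood test over the whole pool. An active barcode had a log2 ratio above 1 with a Benjamini-Hochberg adjusted p under 0.01, and a lower barcode had a ratio below -1 at the same adjusted p. 6 of 257 Morc2a barcodes (2.33%) were active, against 4.19% of the pool. 4 (1.56%) were lower, against 2.14% of the pool. At the same adjusted p and any ratio above 0, 54 Morc2a barcodes (21.0%) were higher in RNA and the pool's share was 23.4%. At any ratio below 0, 48 (18.7%) were lower in RNA and the pool's share was 19.2%. In 45 barcodes (17.5%) every RNA library lay above every DNA library, and in 46 (17.9%) every RNA library lay below, with pool shares of 20.7% and 17.6%. On each count the share among Morc2a barcodes was close to or below that of the pool.

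The precision was enough to see a doubling in most barcodes. The standard error of a fitted log2 ratio had a median of 0.10 and ran from 0.04 to 0.56. For 228 of the 257 barcodes the ratio plus 2 standard errors stayed below 1, and for 245 the ratio minus 2 standard errors stayed above -1.

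The active barcodes were not spread over the locus. 4 of the 6 belonged to the tile at 3681015, the only 4 of its 5 barcodes with enough DNA counts. Its median scaled count over those barcodes was 2976, 3091, 2725, 2814 and 2852 in RNA libraries A_1, A_2, B_1, B_2 and B_3. In DNA libraries A_1, A_2, A_3, B_1 and B_2 it was 997, 983, 1063, 878 and 974. The groups did not overlap, and the lowest RNA library stood far above the highest DNA library. The means were 2891 ± 143 and 979 ± 66.3 scaled counts (SD, n = 5 libraries each), a 2.95-fold difference. The tile was picked as the highest of 68, so the two-sided exact permutation test over libraries (p = 0.00794, the smallest that 5 against 5 can give) describes the libraries and does not account for that choice.

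Each of the 4 barcodes passed on its own. TAAGCTTATT had a fitted log2 ratio of 1.97 ± 0.06 (SE; edgeR adjusted p = 7.6e-23), CTGATTGTCG 1.92 ± 0.08, CACCTTAGTT 1.58 ± 0.08 and CCCTATCCCG 1.39 ± 0.06. Between 1.55% and 2.62% of the pool's barcodes had a higher ratio than these 4. The 4 barcodes themselves differ widely in sequence, with 20% to 70% GC, and their DNA levels ran from a mean of 511 to 1608 scaled counts.

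The tile ranked first by the libraries of either letter. From the libraries of letter A alone its median log2 ratio was 1.78, and the value in the letter B libraries, which had no part in that ranking, was 1.68. Across the 68 tiles the ratios of the letters had a Spearman correlation of 0.57 (0.55 without this tile). The same plasmids and barcodes underlie both. Among the 190 annotated tiles of all loci and controls with at least 3 measured barcodes, the tile at 3681015 ranked 4, after 3 CMV promoter tiles with medians of 2.79 to 3.52. The highest tile of the other gene loci, from Foxf1, had a median of 1.00. A scrambled Ef1a tile stood above that, at 1.07 on 5 barcodes. Of the 124 measured barcodes of scrambled tiles, 5 (4.03%) were active.

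The tile lies in an exon of the processed transcript Morc2a-205 (transcript bounds 3680267 to 3681151) and in an intron of the coding transcripts, 653 bp past the start at 3680362. Its middle 24 bases occur at 633 places in mm10, counting both strands, and the median over all its 24-mers is 630. A stretch of 42 bases, positions 43 to 84, is identical to part of the annotated misc_RNA gene Gm22662 in the same direction. The nearest tiles read here, which share no base with it, did not share its level. Tiles of the design that overlap it were not in the part of the annotation read here, so the extent of the activity is unknown. The tile at 3680770, the nearest upstream, had a median of 0.17 on 5 barcodes, and the tile at 3681358 had 0.17 on 2 barcodes.

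The tile at 3651172 is the only one among the 240 annotated tiles that shares 12-mers with the most active tile, 5 of them, all in the opposite direction. Its repeat-masked share is 86.7% and its middle 24 bases occur at 2898 places. Its median scaled count was 773, 735, 728, 941 and 795 in the 5 RNA libraries and 556, 542, 528, 648 and 632 in the 5 DNA libraries. Every RNA library lay above every DNA library for this median, with means of 794 ± 86.4 and 581 ± 54.8 (SD, n = 5), a 1.37-fold difference. These means are those of a single barcode, CACGAGTATT, which has the middle abundance. Of the 5 barcodes, 3 were separated upwards. The log2 ratio of this tile was 0.45, with its 5 barcodes from 0.33 to 0.89, and none reached the ratio of 1 that a call needs. This was the fourth highest of the tiles with at least 3 barcodes.

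The second highest tile, at 3653666, had a log2 ratio of 0.51, from 3 barcodes that ranged from 0.46 to 0.64. Its scaled counts were 662, 640, 828, 577 and 560 in RNA and 444, 412, 439, 392 and 527 in DNA, again without overlap. Such separation was not particular to the highest and lowest tiles. For median scaled counts it also held for the tiles at 3681456 and 3675113, whose median log2 ratios were 0.038 and -0.065. In both tiles the median scaled count is that of a single barcode, the one of middle abundance (TGCAAGTATT and TACGGTTACC). Of 5 barcodes each, the first tile had 2 separated upwards, and the second had 1 upwards and 1 downwards. Among single barcodes of the pool, 20.7% were separated upwards and 17.6% downwards. The last 19 bases of the tile at 3653666, printed in capitals above, are identical to a stretch of 5 annotated snRNA genes. 7 of the 72 Morc2a tiles (9.72%) and 14 of all 180 genomic tiles (7.78%) share at least 16 bases with an annotated small RNA gene, so such a match is not rare among tiles. The other tiles of the highest 5 were at 3649766, which touches an untranslated region (median 0.50 on 4 barcodes, from -0.31 to 0.63), and at 3685499 in a coding exon (0.39 on 4 barcodes, from -0.12 to 0.71). In both, barcodes of the same tile fell on either side of 0.

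At the low end, the tile at 3671174 had a median log2 ratio of -0.46, with 5 barcodes between -0.67 and -0.29. Its scaled counts were 1226, 1177, 1210, 1502 and 1510 in RNA and 1833, 1764, 1714, 1850 and 1922 in DNA. All RNA libraries lay below all DNA libraries for the tile and for each of its 5 barcodes, and the mean was 1.37-fold higher in DNA. No barcode of this tile reached the ratio of -1 that a call needs. It was the only tile with at least 3 barcodes in which every barcode was separated downwards, as the tile at 3681015 was the only one separated upwards. The next lowest were at 3677231 (-0.35 on 3 barcodes), 3653176 (-0.32 on 4), 3674672 (-0.28 on 4) and 3650780 (-0.26 on 3). The tile at 3653176 is a TTTC repeat over most of its length, and its middle 24 bases occur at 280423 places in mm10.

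The remaining calls were lone barcodes. ATTAACCGTG of the tile at 3654107 had scaled counts of 92.0, 109, 73.5, 73.1 and 79.4 in RNA and 25.0, 11.8, 23.7, 12.3 and 24.4 in DNA. Its fitted log2 ratio was 2.16 ± 0.35 (SE; edgeR adjusted p = 4.5e-06), the highest of the 257 measured Morc2a barcodes. The other 4 barcodes of that tile lay between -0.60 and 0.37. ATGCGAATTC of the tile at 3682044 had a ratio of 1.25 ± 0.29 (edgeR adjusted p = 0.00064), and the other 2 measured barcodes of that tile had -0.10 and -0.24. Both barcodes had few DNA counts, with mean scaled counts of 19.4 and 37.4. Each also differs at 1 base from an abundant barcode of the pool. The mean scaled counts of these neighbours were 4105 and 2185 in RNA, and 3160 and 1775 in DNA. Such a neighbour is common, since 240 of the 257 measured barcodes have one at 1 base, and the part of misread barcodes in these values was not tested.

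The 4 lower calls stood alone in the same way. ACTTTTGCGC of the tile at 3676716, in a coding exon, fell by 1.85 ± 0.09 on the log2 scale, and the other 2 barcodes of that tile had -0.17 and 0.87. ATACTTTTCG of the intronic tile at 3664606 fell by 1.81 ± 0.08, with the other 3 barcodes between 0.10 and 0.26. TATTTTGCGT of the tile at 3650780 fell by 1.56 ± 0.12, with -0.25 and 0.53 beside it. TACACCGGTG of the tile at 3656208 fell by 1.22 ± 0.21, with the other 4 barcodes between -0.66 and 0.03. These are SEs of edgeR fits, and the largest adjusted p of the 4 was 1.3e-05. The DNA levels of the first 3 were not low, with mean scaled counts from 615 to 1546. In none of the 4 tiles did a second barcode reach the same call.

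Barcodes that carry the same tile varied widely. The SD of log2 ratios within a tile had a median of 0.39 over 59 tiles and reached 1.38. In a one-way split of the variance over 254 barcodes in 65 tiles, 17.3% lay between tiles and the SD within tiles was 0.47. Without the tile at 3681015 the estimated share was 0% over 250 barcodes in 64 tiles, where an estimate below 0 is set to 0. The same share was 15.1% over the Fendrr tiles, 0.21% over Cdkn1a, 2.71% over Enc1, 39.3% over the Ef1a promoter, 51.1% over scrambled Ef1a tiles and 87.2% over the CMV promoter. Of the 59 tiles with at least 3 barcodes, 9 had only ratios above 0, 3 had only ratios below 0, and 47 had barcodes on both sides. The barcode's own sequence moved with its ratio. Across all 16285 barcodes the Spearman correlation of the ratio with barcode GC content was -0.23, and over the 257 Morc2a barcodes it was -0.15. After subtracting the pool's median for barcodes of the same GC content, the share between tiles was 16%.

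Position along the gene was compared first in 4 stretches. On the log2 scale the median ratio was 0.0037 over 78 barcodes from 3649033 to 3658825, -0.03 over 57 barcodes from 3660892 to 3668764, -0.07 over 53 barcodes from 3668822 to 3678874, and 0.07 over 69 barcodes from 3680010 to 3688842. The last stretch held 5 of the 6 active barcodes, 7.25% of its barcodes against 4.19% of the pool, and 4 of these 5 belong to the tile at 3681015. It held none of the lower ones, which were 2.14% of the pool. Over 68 tiles the Spearman correlation of the median ratio with position was 0.02, and that between each tile and the next measured one was 0.02. All of these tiles share the same 10 libraries, and a few overlap. Tiles that shared 41 bp gave medians of 0.18 and 0.0026 (3658687 and 3658736), 0.07 and -0.03 (3667234 and 3667283), and -0.21 and -0.08 (3687697 and 3687746). Each of these differences was smaller than the SD between barcodes of at least 1 of its tiles.

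The promoter tiles, those starting within 1000 bp before a Morc2a start site of GENCODE vM21, numbered 5. Both tiles at the 5 prime end of the gene were almost lost to low counts. The tile at 3649033, the only one upstream of the gene, had 23 DNA counts over all barcodes and libraries and none was kept. The tile at 3649423, the most GC-rich of all at 72.2%, kept 1 barcode with a log2 ratio of 0.27. The 3 tiles before the internal start sites had medians of 0.19 (3680010), 0.20 (3680108) and -0.09 (3680206). None of the 14 promoter barcodes was called. With pool shares of 4.19% active and 2.14% lower, so few barcodes cannot show a lack of calls. Their median was 0.20 against -0.02 for 243 gene body barcodes.

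To compare the groups over libraries, the median log2 scaled count of one group was subtracted from that of the other in each library. These are medians of abundance and do not set each barcode's RNA against its own DNA. Differences between median barcode ratios, chosen after seeing the data and not tested, were 0.21 (promoter minus gene body), 0.35 (repeat minus unique) and 0.14 (high minus low GC). By abundance, promoter minus gene body was -0.66 ± 0.07 in RNA and -0.75 ± 0.07 in DNA (SD, n = 5), so the RNA exceeded the DNA value by 0.09. The groups of libraries overlapped (two-sided exact permutation p = 0.0794, Benjamini-Hochberg adjusted over 3 comparisons 0.119). The excess was 0.10 within letter A and 0.06 within letter B. The study's own list of start sites also makes promoter tiles of those at 3649766 and 3649864, counted here as gene body. By that list the excess was 0.12 (exact permutation, adjusted p = 0.0833). With start sites taken within 1000 bp on either side, which adds the tiles at 3649766, 3649864, 3680770, 3681015 and 3681358, the excess was 0.26 (exact permutation, adjusted p = 0.0119). This moves the most active tile into the promoter group, and the excess without it was not computed for this definition. At a minimum of 50 counts it was 0.18 (exact permutation, adjusted p = 0.0119).

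Repeat content gave the larger difference. The 9 tiles with at least 50% masked bases kept 31 barcodes in 8 tiles, whose median ratio was 0.33 (log2) against -0.01 for the 226 barcodes of unique tiles. Repeat minus unique was 0.80 ± 0.09 log2 scaled counts in RNA and 0.38 ± 0.17 in DNA (SD, n = 5). It was 0.80, 0.68, 0.88, 0.76 and 0.89 in the RNA libraries and 0.10, 0.32, 0.52, 0.49 and 0.44 in the DNA libraries, without overlap. RNA exceeded DNA by 0.43 (two-sided exact permutation p = 0.00794, the smallest possible, adjusted 0.0238), by 0.43 within letter A and by 0.38 within letter B. Without the tile at 3681015 the excess was 0.20 (exact permutation, adjusted p = 0.107). The remaining 27 repeat barcodes held no active one, too few to set against the pool's share of 4.19%. With the mean log2 scaled count over the barcodes of each tile, and then the median over tiles, it was -0.059 (exact permutation, adjusted p = 0.476). The size of the difference thus depended on that tile, and its sign on how scaled counts were averaged. RNA over DNA ratios averaged by tile were not compared between these groups. The repeat tiles ranged from the highest tile to the TTTC run among the lowest.

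GC content was split at its median of 40.0%. The 125 barcodes of tiles above it had a median ratio of 0.07 on the log2 scale and the 132 barcodes of tiles at or below it had -0.07. High minus low GC was 0.07 ± 0.06 in RNA and 0.01 ± 0.06 in DNA (SD, n = 5), an excess of 0.06 that lay within the spread of the libraries (two-sided exact permutation p = 0.159, adjusted 0.159). It was 0.07 within letter A and 0.06 within letter B. The upper against the lower quartile of GC gave 0.26 (exact permutation, adjusted p = 0.0357), a minimum of 50 counts gave 0.21 (exact permutation, adjusted p = 0.0238), no filter gave 0.28 (exact permutation, adjusted p = 0.0119), and without the tile at 3681015 the median split gave -0.011 (exact permutation, adjusted p = 0.81). Over tiles the Spearman correlation of the ratio with GC content was 0.36 (n = 68), and 0.33 without that tile. With the masked share it was 0.10, and with the DNA level -0.20. Masked share and GC content were themselves related (-0.27), so the groupings are not independent.

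Known short motifs were counted as exact matches on both strands. The E-box CANNTG, the core bound by MyoD and other basic helix-loop-helix factors, was in 35 of 72 Morc2a tiles (48.6%) and in 38.9% of the 180 annotated genomic tiles. Measured tiles with it had a median of -0.05 and tiles without it 0.0022. Its form CAGCTG, which every count of CANNTG includes, was in 5 tiles (6.94%, against 9.44% of genomic tiles), with a median of -0.11 against -0.03. TATAAA, the TATA box, and CCAAT, the CCAAT box, were each in 13 tiles (18.1%, against 10.0% and 13.3%). Tiles with TATAAA had a median of -0.15 against 0.0026 without, and tiles with CCAAT -0.03 against -0.03. The AP-1 motif TGANTCA was in 2 tiles (2.78%, against 1.11%), with a median of 0.0057 against -0.03. The GC box GGGCGG was in 3 tiles (4.17%, against 7.22%), and the 2 measured ones had a median of 0.34 against -0.03. GTTCNANNC, the box B of RNA polymerase III promoters, was in 4 tiles (5.56%, against 2.78%), with a median of 0.06 against -0.04. TGACGTCA, the cyclic AMP response element, was in none of the genomic tiles. The most active tile held 2 matches to CANNTG and none to the other motifs. These matches are descriptions of the letters and not of bound factors.

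Of the 72 tiles, 4 kept no barcode and have no value. Beside the tile at 3649033 these were the tiles at 3658001, 3667136 and 3688606, with 9, 54 and 16 DNA counts in all over their barcodes and libraries. Of the 102 barcodes that were left out, 35 had a count of 0 in every DNA library and 27 in every library. The number of barcodes a tile kept had a Spearman correlation of -0.06 with its GC content over the 72 tiles.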

How the data were processed

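The authors counted 10-base barcodes by sequencing reporter RNA and vector DNA, and deposited raw read counts. The sources used here name no molecular identifiers, so reads are not independent molecules and all errors cover these libraries only. The deposited counts of 23420 barcodes in 10 libraries were used, and 0 columns of per-sample values were left out. RNA-seq files of the series were not used. The tool that counted barcodes is not given in the sources used here. The authors' methods describe separate transfections for RNA, while the DNA libraries repeat 1 vector pool. The members, lists and tests were chosen with earlier results of these data known.

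A barcode was kept when its count reached 10 in 3 or more DNA libraries (16285 barcodes). Each library was scaled by its median count over kept barcodes with at least 10 counts. RNA was tested against DNA with glmQLFit and glmQLFTest of edgeR 4.0.16 in R 4.3.3 over all kept barcodes. A barcode's log2 ratio is the difference of its mean log2(count + 0.5) between RNA and DNA libraries after scaling. The fitted ratio of edgeR decided calls and is named as fitted. A tile's value is the median over its kept barcodes. Its scaled count in a library is likewise a median, so it follows the barcodes of middle abundance there. Group comparisons used exact permutation over libraries, read at an adjusted p of 0.05, which are the replicates. Barcodes and tiles are not.

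Tiles and barcodes were read from the study's oligo annotation, and only its sequences, names and coordinates were used. Masked bases are the lower case of the GRCm38.p6 genome, which has the mm10 coordinates, and transcripts are from GENCODE vM21. 24-mers were counted on both strands of the genome. Named tiles are those with a call, the 5 highest and 5 lowest with at least 3 kept barcodes, promoter tiles, overlapping tiles, tiles sharing 12-mers with the highest, and tiles with no kept barcode. The match to small RNA genes and the barcodes at 1 base were added after values were seen. Tables were made with Python 3.11.15, pandas 2.3.3 and scipy 1.17.1.

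No 2 libraries agreed within sampling noise. The mean chi-square per barcode between libraries of a group was at least 2.92, where 1 is the sampling value. On simulated counts for this comparison of 16285 barcodes, with 200 barcodes changed 2.5-fold, 92.5% of them were recovered and 0 others were called. Alternatives were TMM and DESeq2 size factors, the Wald test of DESeq2 1.42.0, other filters and thresholds, the letter as a term, a replicate block, other definitions of the groups and leaving out each library in turn.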

Additional observations from a re-analysis of the deposited data

Results flagged for a closer look

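Beyond the measured barcodes, 4 Morc2a barcodes that had too few DNA counts to be kept gave RNA counts above the DNA level, and edgeR called them active when no filter on low counts was applied. CCTACAAGGT of the tile at 3657805 had 343 RNA and 54 DNA counts summed over 5 libraries each. GTGGACCTAT of the tile at 3677849 had 213 and 46. GAATAGTATC of the promoter tile at 3680010 had 18 and 1. TTGCCACGAT, the fifth barcode of the most active tile at 3681015, had 95 and 5, with 3 to 35 counts in the RNA libraries and 0 to 3 in the DNA libraries, and a fitted log2 ratio of 4.29 ± 1.00 (SE; edgeR adjusted p = 0.00087). Its direction was that of the other 4 barcodes of the tile. It was listed only because it was called active, so that direction was set by the choice and lends no support. No library stood apart from the other 4 of its kind in the 44 groups of named tile values and comparisons that were examined.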

How the results depend on the processing

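The most active tile kept its direction and its side of the threshold under all 19 alternatives, between 1.70 and 1.98. The median over all Morc2a barcodes stayed within the spread of the libraries under all 18. Without a filter on low counts 10 of 324 Morc2a barcodes and 871 of 20517 pool barcodes were active, with any ratio past 0 there were 54 active and 48 lower, and leaving out each library in turn gave 6 to 8 active and 4 to 6 lower. The numbers in the labels did not pair RNA with DNA libraries (correlation of deviations -0.08 to 0.07 over 4 shared numbers). With the replicate block 7 of 257 barcodes were active and 5 lower, beside 625 and 356 of 16285 in the pool. The most active tile then had 1.79 and the barcode median was -0.0063.

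The comparisons of tile groups, read at an adjusted p of 0.05 (exact permutation), were less stable, and the cause was not tested. Promoter minus gene body was 0.012 without a filter (adjusted p = 0.873, exact permutation), 0.057 with tile means, 0.18 at 50 counts, 0.26 with start sites on either side, 0.21 by the 25 library pairs, 0.21 by medians of barcode ratios (chosen after seeing the data) and 0.066 to 0.12 with a library left out, of which the fit without RNA A_2 passed that threshold (0.11, exact permutation, adjusted p = 0.0476). Repeat minus unique was -0.059 with tile means, 0.18 with any masked base, 0.20 without the most active tile, 0.24 at 50 counts, 0.59 without a filter, 1.05 by copies of the middle 24 bases and 0.36 to 0.46 with a library left out. High minus low GC was 0.21 at 50 counts (exact permutation, adjusted p = 0.0238), 0.28 without a filter (adjusted p = 0.0119, exact permutation), 0.26 by quartiles (adjusted p = 0.0357, exact permutation), 0.18 by library pairs, 0.14 by medians of barcode ratios and -0.011 without the most active tile, and 0.04 to 0.08 with a library left out. The variance share between tiles was 23.7% at 50 counts and 0% without the most active tile. Alternatives without that tile, by barcode ratios and centred by barcode GC were chosen after seeing the data. No ratio is given for the 102 barcodes left out, and 9 measured tiles rest on under 3 barcodes.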
